A study of Mus musculus with 8 samples.

Results

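The cytosolic ribosomal protein genes were followed on an array of 60273 probes by name: every gene probe called Rpl or Rps and a number in the files or through its RefSeq accession, together with Rplp0, Rplp1, Rplp2 and Rpsa. Names marked -ps (pseudogenes) and the Rps6k kinases were left out. This gave 129 probes of 88 genes, among 47242 distinct names on the array. By role these were 60 probes of large-subunit proteins, 51 of small-subunit proteins, 4 of the stalk proteins, 13 of variants and close copies (names such as Rpl10l, Rps27l or Rpl37rt) and 1 of Rps19bp1, a protein that binds Rps19 and is no ribosomal subunit. Of these, 123 probes stood well above background on 4 or more of the 8 arrays and were tested, and all 88 genes kept a tested probe. The other 6, on Rpl3l, Rpl6, Rps2, Rps20, Rps24 and Rps29, were well above background on at most 3 arrays.

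The cells came from bone marrow chimeras: wild-type mice that carried DsRed-marked bone marrow from Selplg wild-type donors (labelled Psgl1+/+, replicates 1 to 4) or from Selplg knockout donors (labelled Psgl1-/-, replicates 5 to 8). Selplg encodes PSGL-1, the leukocyte glycoprotein that selectins bind. All mice had a 30 min occlusion of the middle cerebral artery, and live DsRed+ CD11b+ Ly6G- CD3- CD45hi cells were sorted from the ischemic brain at day 7 of reperfusion. It was asked how RNA in these marrow-derived cells differs with the genotype of the donor. The labels give no number of animals behind a sample. The p-values therefore cover no more than the variation among these 8 samples, part of which may be technical. In bulk samples fewer cells of a type and less RNA per cell cannot be told apart.

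The ribosome is the machine that reads mRNA and links amino acids into protein. Its small subunit decodes the message and its large subunit forms the peptide bond, while the stalk proteins of the large subunit recruit the elongation factors. The mRNAs of ribosomal proteins are abundant in most cells and start with a run of pyrimidines, the TOP element, through which growth signals by way of mTORC1 set their translation together.

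On each array, 76.1% to 88.2% of gene spots were well above background. The probe for Selplg read 13.79, 12.68, 13.05 and 15.74 (log2 signal) on Psgl1+/+ replicates 1 to 4 and 13.25, 13.45, 13.16 and 12.88 on Psgl1-/- replicates 5 to 8. The groups overlapped, and the difference of -0.63 ± 0.65 (SE) did not pass the test (limma, adjusted p = 0.688), so the probe does not separate the labels. No source used here says whether it lies in the deleted part of the gene, and the groups are named as labelled. All 8 monocyte and macrophage markers were well above background on every array, as were 5 of 5 for microglia, 5 of 5 for T cells and 4 of 4 for neurons, and no list had a marker gene below background on all 8 arrays. The slide column and the group cannot be told apart, since slide columns 1 and 2 held Psgl1+/+ arrays and columns 3 and 4 Psgl1-/- arrays.

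No ribosomal protein probe passed the test for a difference between the labels. Of 123 tested probes 0 had an adjusted p below 0.05 (limma with Benjamini-Hochberg adjustment over all 51380 tested probes), against 0.0175% of all tested probes, and the members' adjusted p-values ran from 0.477 to 0.996. At an unadjusted p below 0.05, 2 member probes were higher in Psgl1-/- and 0 were lower, against 1.63% of all probes higher and 8.66% lower. The groups did not overlap for 2 member probes that lay higher in all Psgl1-/- arrays and 2 that lay lower, against 0.66% and 10.5% of all probes. With 4 arrays a group the standard error of a member's difference ran from 0.22 to 2.38 with a median of 0.53 (log2). The 95% interval of the difference lay wholly between -1 and 1 for 10 of 123 probes, and for the others it reached a 2-fold difference or more in at least 1 direction.

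The members' differences (Psgl1-/- minus Psgl1+/+, log2) were centred near 0, with 65 above and 58 below, a median of 0.02 and an interquartile range of -0.29 to 0.54. All tested probes had a median of -0.32, with 16270 above 0 and 35110 below. Relative to that background the members' median was higher by 0.35, and the sign split depended on the scaling: it was 87 above to 36 below after quantile normalization, 75 to 48 after scaling to the array median and 98 to 25 after cyclic loess, where the median of all probes stood at -0.16, -0.17 and 0.00. The distance between members and all probes stayed between 0.33 and 0.42 under these scalings, normexp and the deposited value table. It was -0.09 without the Psgl1-/- replicates 7 and 8, the knockout arrays with the highest member signal, whose removal can only lower it, and no pair of wild-type arrays was left out to match. It was 0.13 without replicate 7 alone, 0.15 without replicate 1 and 0.60 without replicate 6. It was 0.19 on slide row 1 alone and 0.53 on slide row 2 alone.

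The members shared a profile over arrays, and how far it crossed the labels depended on the scaling. With the 75th percentile scaling the median member signal was 12.29, 12.29, 12.85 and 13.23 on Psgl1+/+ replicates 1 to 4 and 12.44, 12.36, 13.57 and 13.18 on Psgl1-/- replicates 5 to 8 (log2). With this scaling replicates 3, 4, 7 and 8 were high and replicates 1, 2, 5 and 6 low, and the high arrays lay in slide columns 2 and 4. After quantile normalization the medians were 12.50, 12.47, 12.62 and 12.70 in Psgl1+/+ and 12.64, 12.65, 13.42 and 13.28 in Psgl1-/-, so that replicates 7 and 8 stood above the rest and replicate 3 lay below replicates 5 and 6. In the deposited value table replicates 3 and 4 (12.61 and 12.62) were level with replicates 5 and 6 (12.62 and 12.59), below replicates 7 and 8 (13.41 and 13.19). Replicate 3 also lay below replicate 5 with normexp (12.62 and 12.66), but above it after scaling to the array median (12.90 and 12.42) and, by less, after cyclic loess (12.60 and 12.51). The groups overlapped with each of these 6 scalings. The group means of the medians with the 75th percentile scaling were 12.67 ± 0.46 (SD, n = 4) and 12.89 ± 0.59 (SD, n = 4). The median of all tested probes moved the other way on the knockout side, at 7.59 and 7.61 on replicates 5 and 6 against 7.35 and 7.47 on replicates 7 and 8. On the wild-type side it read 7.71, 7.66, 7.53 and 7.65.

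**Figure D1:**
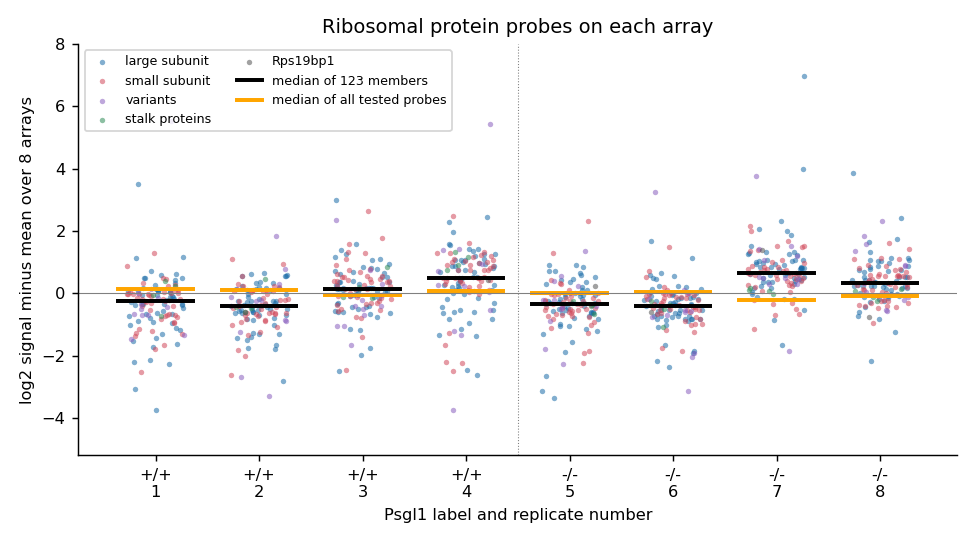
Each point is 1 tested ribosomal protein probe on 1 array, as log2 signal minus that probe's mean over the 8 arrays, coloured by role, with the 75th percentile scaling. Black bars mark the median of the 123 members and orange bars the median of all tested probes (centred over arrays), and the black bars are high on replicates 3, 4, 7 and 8 in both groups.

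Each member's values, with the 75th percentile scaling, were set against the median profile of the others over the 8 arrays. The median correlation was 0.61 for members and -0.14 for all tested probes against the members' profile, as a description over 8 arrays that share their slide. Small-subunit probes had a median of 0.65, large-subunit probes 0.59, stalk probes 0.52 and variants 0.50. By kind of accession it was 0.64 for RefSeq probes and 0.55 for GenBank probes, but 0.12 for the 16 tested Ensembl probes. Of 123 members, 49 were highest on Psgl1+/+ replicate 4 and 37 on Psgl1-/- replicate 7, which is 39.8% and 30.1%, against 27.1% and 9.79% of all tested probes. Replicate 7 held the lowest value of 5.69% of members but of 31.8% of all probes. Other bright probes followed this profile on the wild-type side but hardly on the knockout side. Among probes with a mean signal of 12 to 14, the 62 members read 12.74, 12.57, 13.94 and 13.47 on replicates 5 to 8, while the 2683 other probes read 12.69, 12.70, 12.84 and 12.78. On Psgl1+/+ replicates 1 to 4 these members read 12.62, 12.58, 13.55 and 13.78 and the other probes 12.82, 12.79, 13.06 and 13.43.

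Several other measures were set beside this profile. The summed linear signal of the 8 monocyte and macrophage markers was 50518, 99895, 136412 and 170805 on Psgl1+/+ replicates 1 to 4 and 63986, 71443, 179724 and 131697 on Psgl1-/- replicates 5 to 8 with the 75th percentile scaling. Replicates 3, 4, 7 and 8, high in ribosomal protein signal with that scaling, were the 4 highest in it; replicate 3 is not among the 4 highest in ribosomal protein signal with quantile normalization, normexp or the deposited value table. The share of spots well above background was 81.6%, 86.8%, 76.1% and 86.2% on replicates 1 to 4 and 81.2%, 88.2%, 76.2% and 87.6% on replicates 5 to 8, low on the arrays of slide row 2, which is another split. Summed neuron markers ran from 141283 to 217700 in Psgl1+/+ and from 98333 to 126126 in Psgl1-/-. B cell markers ran from 32644 to 37807 and from 21221 to 28956. For both lists the groups did not overlap, with 0 markers called. A linear sum follows its brightest probes. Of all tested probes, 10.5% lay lower in Psgl1-/- without overlap, and 63.1% of those with a mean signal of 14 or more did. The part of these measures in the members' values was not tested.

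Among large-subunit probes, 36 of 59 had a difference above 0, with a median of 0.15, and none was called. Rpl34, a structural protein of the subunit, read 12.94, 11.75, 12.61 and 13.12 in Psgl1+/+ and 13.01, 13.23, 14.08 and 13.38 in Psgl1-/-. Only the value of replicate 5 lay below the top of the wild-type range, and the difference was 0.82 ± 0.39 (limma, adjusted p = 0.482). Rpl5 and Rpl11, which with 5S rRNA hold back the p53 inhibitor Mdm2 when ribosome assembly fails, had differences of -0.04 ± 0.43 and -0.12 ± 0.44 on their RefSeq probes and 0.31 ± 0.50 and 0.14 ± 0.47 on their Ensembl probes. Rpl13a, which leaves the ribosome in interferon-treated monocytes to silence inflammatory mRNAs, read 8.80, 9.30, 8.82 and 6.12 in Psgl1+/+ and 5.59, 7.82, 10.79 and 12.59 in Psgl1-/-. Its knockout values spanned the whole wild-type range on both sides (0.94 ± 1.53, limma, adjusted p = 0.807). Rpl10 differed by 0.36 ± 0.53, Rpl22 by 0.25 ± 0.32 and Rpl38, a protein that helps select Hox mRNAs, by 0.59 ± 1.25. Rpl29 had the widest spread of the canonical large-subunit probes: it lay between 4.05 and 4.97 in Psgl1+/+ and read 3.90, 7.48, 12.77 and 4.55 in Psgl1-/-. Replicates 6 and 7 lay above all wild-type arrays and replicate 5 below them, and the difference of 2.77 ± 1.81 was 0.90 in its lowest alternative. The Rpl29 probe was well above background on only 2 wild-type and 3 knockout arrays, so its low values lie near background. Rpl27a was lower by 0.70 ± 0.52 (limma, adjusted p = 0.579), with values of 13.91, 13.06, 14.39 and 15.02 against 12.71, 12.99, 13.65 and 14.26.

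Among small-subunit probes, 23 of 47 had a difference above 0, with a median of -0.13, and the median turned positive under every other scaling tried, from 0.03 for the array median to 0.29 for cyclic loess. Rps6, the S6 kinase substrate, had a pooled SD within groups of 0.50, against a median of 0.78 over members. It read 14.36, 14.79, 15.31 and 15.53 in Psgl1+/+ and 14.67, 14.70, 15.65 and 15.24 in Psgl1-/-. The groups overlapped throughout (0.07 ± 0.37, limma, adjusted p = 0.945), with an interval of -0.79 to 0.94. Its difference ran from -0.31 to 0.57 over the alternatives, and was 0.57 both after quantile normalization and in the deposited value table. Rpsa, which is also known as a laminin receptor, differed by 0.16 ± 0.32, Rps14 by 0.36 ± 0.76 and Rps27a, made as a fusion with ubiquitin, by -0.58 ± 0.75. The 3 probes of Rps19, the gene most often mutated in Diamond-Blackfan anaemia, differed by -0.21 to -0.40, and the 2 of Rps3, which also repairs DNA, by -0.20 and 0.48. Rps15 read 13.46, 13.83, 13.73 and 12.59 in Psgl1+/+ and 13.65, 13.82, 15.33 and 14.42 in Psgl1-/- (0.90 ± 0.47, limma, adjusted p = 0.491). Rps26 read 11.22, 10.17, 11.64 and 12.92 against 11.65, 12.13, 13.86 and 13.78 (1.37 ± 0.74, limma, adjusted p = 0.495). For both, replicates 7 and 8 exceeded every wild-type array and replicates 5 and 6 did not.

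The narrowest spreads within groups belonged to 3 small-subunit probes. Rps2 read 7.31, 7.32, 7.34 and 7.65 in Psgl1+/+ and 7.06, 7.15, 6.97 and 6.83 in Psgl1-/-. Every knockout array read lower than every wild-type array, with a difference of -0.40 ± 0.22 (limma, adjusted p = 0.499), and this difference was -0.09 after cyclic loess. The Ensembl probe of Rps19 (-0.28 ± 0.26) and a GenBank probe of Rps4x (-0.33 ± 0.23) had about the difference of all probes, -0.32.

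The 4 stalk probes had differences of -0.34 to -0.76 with the 75th percentile scaling, with 0 called, but 1 of 4 turned above 0 after quantile normalization and in the deposited value table, and 2 of 4 after cyclic loess. Relative to all probes their median was -0.05. Rplp0, the protein that anchors the stalk to the ribosome and a common reference gene for PCR, read 13.57, 12.70, 14.02 and 13.91 in Psgl1+/+ and 12.92, 12.09, 13.23 and 12.92 in Psgl1-/-. The ranges overlapped through replicate 2 alone on the wild-type side (-0.76 ± 0.40, limma, adjusted p = 0.492), and the difference stayed between -1.04 and -0.42 over all alternatives. Rplp1 and Rplp2, which pair on the stalk, differed by -0.34 ± 0.42 and -0.38 ± 0.42 (2 Rplp1 probes) and by -0.37 ± 0.39.

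Among the variants, Rpl10l had the clearest separation of groups. Rpl10l is an autosomal retrogene copy of the X-linked Rpl10, known for its role in spermatogenesis, where it stands in for Rpl10. Its probe, given in full because the groups did not overlap on it, matched an accession of Rpl10l and listed no other named gene in the files:
Rpl10l probe: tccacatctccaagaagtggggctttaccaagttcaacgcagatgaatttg
The probe read 12.13, 11.01, 11.57 and 11.74 in Psgl1+/+ and 12.81, 12.36, 13.34 and 13.18 in Psgl1-/-, each the mean of 5 spots. Every knockout array exceeded every wild-type array, by 1.31 ± 0.35 or 2.48-fold (95% interval 1.42 to 4.34), and the unadjusted p of 0.0058 became an adjusted p of 0.477 in limma. The difference stayed between 0.97 and 1.60 in all alternatives, with adjusted p-values of 0.424 to 0.825. The Rpl10 probe overlapped between groups, with 13.87, 12.33, 13.66 and 14.41 against 13.18, 13.55, 14.53 and 14.44. Copies this alike can share signal, and whether the probe tells Rpl10l from Rpl10 was not tested.

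The other variants overlapped between groups. Rps27l, a p53 target, lay between 7.66 and 8.18 in Psgl1+/+ and read 7.09, 12.13, 9.36 and 10.69 in Psgl1-/-. Replicates 6, 7 and 8 were above all wild-type arrays and replicate 5 below them all (1.90 ± 0.97, limma, adjusted p = 0.489), and the difference was 3.58 on slide row 1 and 0.23 on slide row 2. Rpl22l1, the paralog of Rpl22, and Rpl7l1, a nucleolar assembly factor, had the largest spreads of all members with Rpl29. Rpl22l1 read 8.43, 5.75, 6.75 and 13.85 against 6.16, 6.51, 9.95 and 10.01, and Rpl7l1 read 13.30, 4.50, 10.14 and 4.04 against 6.88, 4.64, 11.55 and 7.24. For both, the highest and the lowest value were in Psgl1+/+, and their differences were -0.54 ± 1.86 and -0.42 ± 2.38. Rpl36al, Rpl39l, Rpl3l and Rps4l differed by -0.23 ± 0.48, -0.05 ± 0.92, 0.35 ± 0.77 and -0.06 ± 0.50. The tested probe of the muscle variant Rpl3l was well above background on all 8 arrays, and a second Rpl3l probe did not pass the filter. The probe of the testis variant Rpl39l was well above background on 2 arrays of each group. The probes of Rpl37rt and Rps27rt also list Rpl37 and Rps27, so their values (0.71 ± 0.42 and -0.22 ± 0.69) belong to either gene. In all, 15 member probes list a further named gene in the files, most often a pseudogene or close copy, and Rplp2 also lists Wdr89. Another listed accession could not be matched to any gene for 54 member probes. Of the 129 probes, 61 have 1 or both of these.

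**Figure D2:**
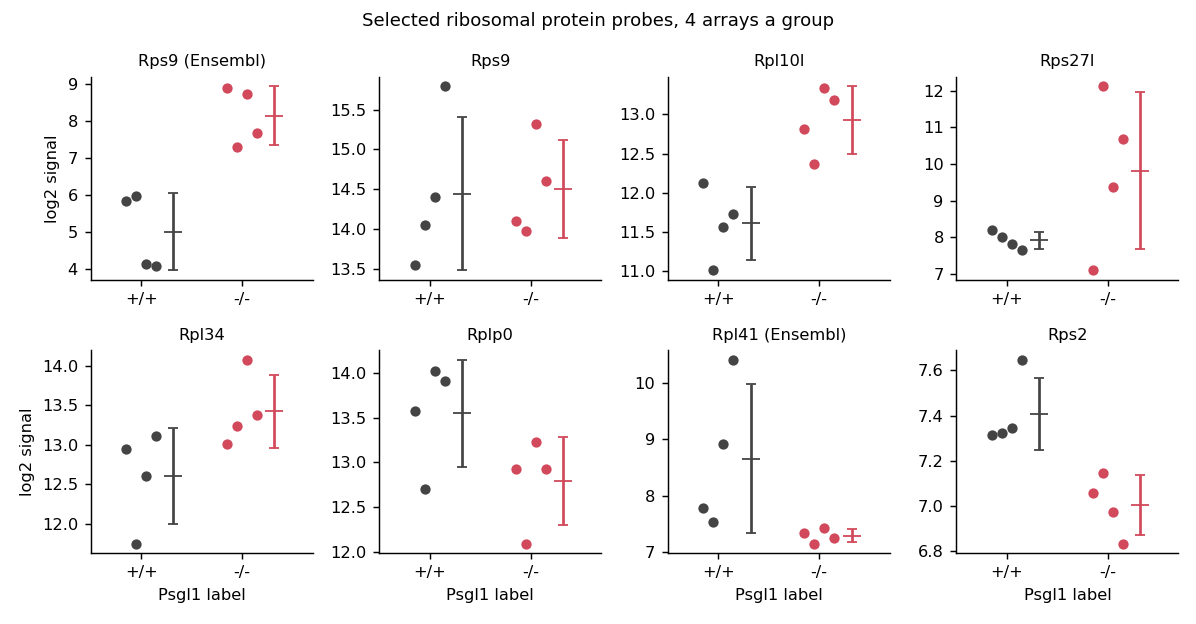
Log2 signal of 8 selected probes on the 4 arrays of each Psgl1 label (points), with the mean and SD of each group (bar at the right of the points); each panel has its own axis, which does not start at 0. Groups are apart for the Ensembl probes of Rps9 and Rpl41, for Rpl10l and for Rps2, and overlap for the other panels.

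The member with the smallest p was a probe on an Ensembl transcript of Rps9, a small-subunit protein that helps keep decoding accurate, and it stood alone among the probes of its gene. The array has 3 Rps9 probes, shown because they do not overlap in sequence and gave different values. The RefSeq probe matches the coding sequence and is given in full, and 30 bases from the 5' end are given for both Ensembl probes:
Rps9 RefSeq probe: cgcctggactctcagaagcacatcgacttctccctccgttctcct
Rps9 ENSMUST00000136858: acattagcctttggagctgacagatgtgag
Rps9 ENSMUST00000146303: tcttataggtgactgggcctacatacacag
The files place the 49-base probe of ENSMUST00000136858 at chr7:3657509-3657656 (mm9), a span of 148 bases, and that of ENSMUST00000146303 at chr7:3656912-3656971. The former read 5.83, 5.98, 4.12 and 4.09 in Psgl1+/+ and 8.90, 7.29, 8.74 and 7.67 in Psgl1-/-, well above background on 3 and 4 arrays of the groups. All knockout arrays exceeded all wild-type arrays, by 3.15 ± 0.61 or 8.86-fold (95% interval 3.30 to 23.8), with an unadjusted p of 0.0010 and a limma adjusted p of 0.477. The difference ran from 1.88 to 3.84 over the alternatives in which the probe was tested. The low end came with normexp background correction and quantile normalization, against 3.31 with quantile normalization alone. The wild-type values are low, so the size of the fold depends on how background is corrected. The RefSeq probe, at 13.55, 14.05, 14.40 and 15.79 against 14.10, 13.98, 15.32 and 14.61, differed by 0.05 ± 0.54. The other Ensembl probe, at 5.61, 4.27, 4.85 and 6.28 against 5.44, 4.66, 3.96 and 5.80, differed by -0.29 ± 0.57. The groups overlapped on both, so the 3 probes of Rps9 disagreed by 3.44 on the log2 scale. Exon and intron positions for build mm9 were not used here.

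Rps9 had the widest gap between the probes of a gene. Of 31 genes with more than 1 tested probe, 17 had probes on both sides of 0, some by little, as Rpl35a (0.03 and -0.01). Over 36 probe pairs that share no aligned stretch of 15 or more bases at 85% identity, the probes of a gene had the same sign in 18, with a median gap of 0.34 and a median correlation over arrays of 0.38. The median gap lay below the median standard error of a member's difference, 0.53. Whether the probes of a gene differ was not tested. After Rps9 the probes lay farthest apart for Rpl26 (-0.64 and 1.12), Rps10 (-1.04 and 0.71) and Rpl10a (-0.16 and 1.52), and the RefSeq probe was the higher in each of these 3. The Ensembl probe of Rpl41, the smallest ribosomal protein, read 7.77, 7.53, 8.91 and 10.42 in Psgl1+/+ and 7.34, 7.15, 7.43 and 7.24 in Psgl1-/-, apart in all arrays (-1.37 ± 0.62, limma, adjusted p = 0.477). Its RefSeq probe differed by 0.02 ± 0.38. By kind of accession, 91 tested RefSeq probes had a median difference of 0.13, 16 Ensembl probes -0.28 and 16 GenBank probes -0.29. Over all tested probes these medians were -0.32, -0.31 and -0.36. For curated RefSeq mRNAs alone the median was 0.14 over 90 members and -0.26 over 20413 tested probes.

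**Figure D3:**
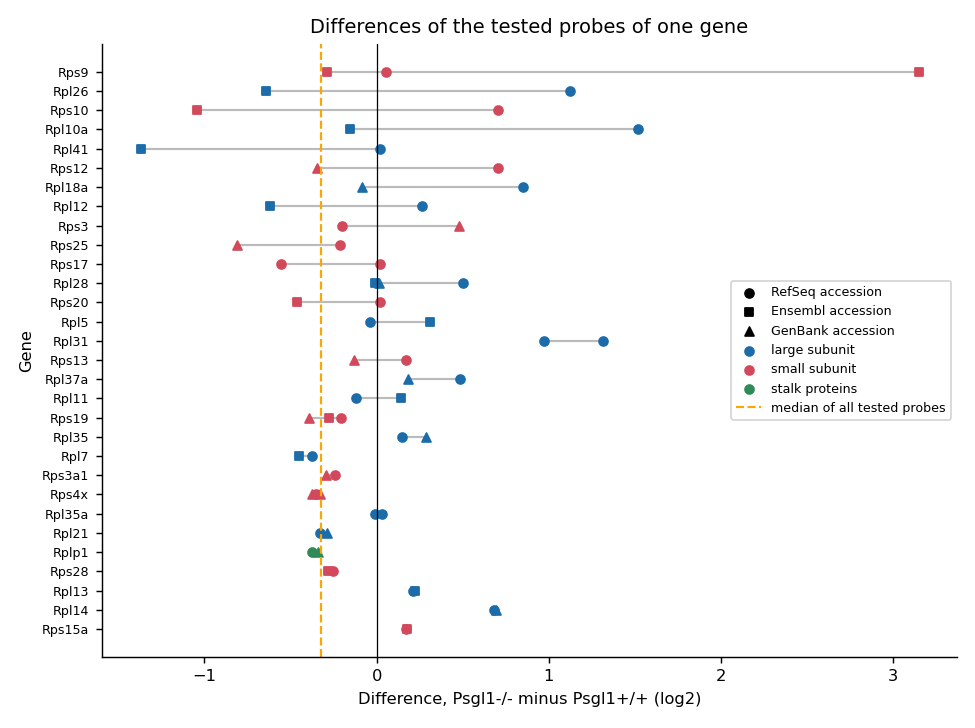
Difference (Psgl1-/- minus Psgl1+/+, log2) of each tested probe for 30 of the 31 genes with several, ordered by the distance between their probes. Marker shape gives the kind of accession, colour the role, and the dashed line the median of all tested probes, -0.32; Rps9 spans 3.44 and the bottom rows under 0.05.

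Where probes of a gene did share sequence their values lay close together. In 3 genes 2 probes overlap over 47 or 48 bases with 1 or 2 mismatches, and 30-base stretches of them are given with the mismatched bases in capitals:
Rpl14 GenBank probe: acagaataataaaAgttctttttgacggtg
Rpl14 RefSeq probe: acagaataataaaGgttctttttgacggtg
Rps3a1 GenBank probe: ccaagaatcagtAtaaaatccagattttta
Rps3a1 RefSeq probe: ccaagaatcagtGtaaaatccagattttta
Rpl28 GenBank probe: gccccacacCccGgaagcaataaagagtcc
Rpl28 Ensembl probe: gccccacacGccCgaagcaataaagagtcc
Counted from the 5' end of each stretch, the changes are A14G for Rpl14, A13G for Rps3a1 and C10G with a further change for Rpl28. The differences were 0.69 and 0.68 for Rpl14, -0.30 and -0.24 for Rps3a1 and 0.01 and -0.01 for Rpl28, and the pairs correlated over the 8 arrays at 0.978 to 0.996. For the 17 members printed in 5 spots, the SD between spots of an array had a median of 0.07, against a median SD of 0.73 between arrays of a group.

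Member differences varied with signal. The 20 members with a mean signal of 10 to 12 had a median difference of 0.49, the 62 at 12 to 14 had 0.10 and the 20 at 14 or more had -0.24, where all tested probes of the same ranges had -0.27, -0.32 and -0.56. In each of these 3 ranges the members' median lay above that of all probes, as it did for the 5 members below 6 (-0.05 and -0.42) and the 7 at 8 to 10 (0.13 and -0.25). For the 9 members at 6 to 8 it lay below, at -0.35 against -0.31. Across the 123 members the difference correlated with mean signal at -0.18, with probe length at -0.25 and with GC content at 0.21, weak relations over probes that share arrays.

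**Figure D4:**
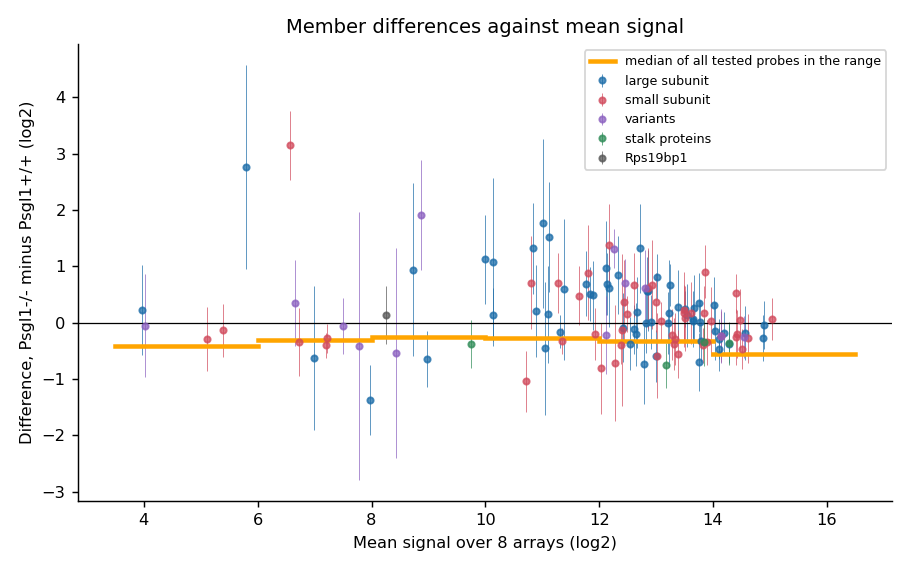
Difference of each tested member (Psgl1-/- minus Psgl1+/+, log2, with its limma standard error) against its mean signal over the 8 arrays. Orange bars are the median difference of all tested probes in each range of signal, from -0.56 to -0.25; most members at a signal of 10 or more lie above them.

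The start sites bear on what the members share beyond their name. RefSeq promoters (GRCm38.p6) were found for 67 of the 88 genes. The letters CTTTCC, a common form of the pyrimidine run at TOP starts, were searched from 20 bases before to 20 bases after the annotated start. They stood on the gene's strand in 11 of 67 member genes (16.4%) and in 621 of 27025 genes in all (2.30%), and on the opposite strand in 0 and 548 (2.03%). Rps10 holds the letters, while Rpl27a, Rplp2 and Rps6 show pyrimidine runs without them. These 4 stretches run from 10 bases before the start to 20 from it, with the searched letters in capitals:
Rps10, chr17:27635225-27635254, minus strand: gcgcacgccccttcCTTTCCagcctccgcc
Rpl27a, chr7:109519185-109519214, plus strand: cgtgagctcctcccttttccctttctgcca
Rplp2, chr7:141447641-141447670, plus strand: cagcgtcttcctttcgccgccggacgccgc
Rps6, chr4:86857348-86857377, minus strand: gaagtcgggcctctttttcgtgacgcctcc
The gene medians of the difference were centred at 0.01 for the 11 genes with the letters and at 0.13 for the 56 without, with wide overlap (-0.27 to 1.32 and -0.76 to 1.90).

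The wider translation machinery held no call either. Of 94 tested probes for mitochondrial ribosomal proteins, 43 had a difference above 0 and 51 below, with a median of -0.15. Mrps9 read 6.22, 6.51, 6.02 and 6.41 in Psgl1+/+ and 11.48, 10.78, 9.98 and 8.04 in Psgl1-/-, apart in all arrays (3.78 ± 0.70, limma, adjusted p = 0.477). Ribosome biogenesis factors split 22 to 22 (median 0.00) and initiation factors 28 to 18 (0.25). Elongation factors split 5 to 11 (-0.18) and regulators of TOP mRNAs and mTORC1 10 to 21 (-0.39). Of all tested probes 31.7% had a difference above 0, with a median of -0.32. The shares for elongation factors (31.25%) and the regulators (32.3%) were close to that. Mitochondrial ribosomal proteins (45.7%), initiation factors (60.9%) and the evenly split biogenesis factors had higher shares. Each of these lists but the regulators had a median above -0.32, as the members did. Whether a list differs from all probes was not tested. Eif5b, which joins the subunits at the start codon, read 8.53, 4.41, 3.27 and 4.54 against 8.70, 11.66, 12.97 and 13.09. The groups did not overlap, but replicate 5 exceeded replicate 1 by little (6.42 ± 1.38, limma, adjusted p = 0.477). The Eif5b probe was well above background on 3 wild-type and 4 knockout arrays. Rheb, the GTPase that activates mTORC1, differed by -0.59 ± 0.24 on its Ensembl probe and Denr, a reinitiation factor, by -0.71 ± 0.26. Both were without overlap and had limma adjusted p-values of 0.477. Both also had a mean signal of 14 or more, where 63.1% of all tested probes lay lower in Psgl1-/- without overlap. The median difference of those probes was -0.56. Tsc1, which restrains Rheb, read 3.31, 11.97, 3.32 and 1.96 against 12.31, 11.51, 11.40 and 10.44. It was well above background on 1 wild-type array and 4 knockout arrays, so it passed the filter mainly through the group where it is high, and no fold or test is given. Replicate 2 was as high as the knockout arrays. Rack1, a scaffold protein carried on the small subunit, differed by -0.997 ± 0.62.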

How the data were processed

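Per the file headers, RNA of 8 samples was hybridised to 1-colour Agilent arrays on 1 slide, read in 1 scan with Feature Extraction 11.5.1.1 (build mm9). The deposited scanner files hold each spot's intensity, background-corrected but not scaled between arrays, per the file headers. No source used here gives the processing of the authors' value table, also intensity, which served as an alternative. From these, log2 intensity minus each array's 75th percentile was computed, outlier and control spots were left out, spots of a probe averaged, and probes kept that stood well above background on 4 or more of the 8 arrays. Probes, not genes, were tested with limma 3.58.1 in R 4.3.3 (Psgl1-/- minus Psgl1+/+, Benjamini-Hochberg over 51380 probes), after the steps were tested on simulated data. A ± is the standard error of a difference unless marked SD. Python 3.11.15 made tables. Arrays number 4 a group, which limits precision. Members, lists and the rule for named genes were chosen with earlier results of these data known. The rule names the 6 smallest unadjusted p in each direction, members with a known further role, the 3 largest and 3 smallest spreads, the 5 genes whose probes lie farthest apart, and up to 2 probes of each translation list. Rpl14, Rps3a1, Rpl28, Rpl37rt, Rps27rt and Rps19bp1 fall outside it and were chosen after their values were seen. Some results under the rule are not reported here. Scalings, background correction, filters, probe choice, variance model, array weights, slide row and replicates were varied, and 4 choices of members were added after seeing the data.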

Additional observations from a re-analysis of the deposited data

Results flagged for a closer look

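Among 104 groups of 4 arrays (51 named probes and the members' median), 4 held a value far from the other 3 by Dixon's criterion. Chance flags about 1 in 20 such groups. Psgl1+/+ replicate 4 held 3 of them: Rps2 read 7.65 there against 7.31 to 7.34 on the others, Rpl13a 6.12 against 8.80 to 9.30, and Rpl36al 15.56 against 13.63 to 13.93. In Psgl1-/-, replicate 7 read 8.93 for Rps4l against 6.93 to 7.06.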

How the results depend on the processing

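No member probe was called in the main fit or in any of the 23 alternatives, with between 1 and 8 higher and 0 and 5 lower at an unadjusted p below 0.05. The counts over all tested probes moved with the setting as well. In the main fit 839 of 51380 probes were higher and 4448 lower. Under cyclic loess, where 8 members were higher and 0 lower, 1521 of 51380 were higher and 896 lower. The members' median relative to all probes was 0.35 in the main fit. It ran from -0.09 without Psgl1-/- replicates 7 and 8 together to 0.60, and from 0.13 to 0.60 when 1 replicate was left out. The SD of this distance between single arrays of a group was 0.61. As this exceeds 0.35, staying within it does not show that the value is steady. Large-subunit and small-subunit medians, also relative to all probes, ran from -0.07 to 0.65 and from -0.06 to 0.57. With member choices made after seeing the data, the members' relative median was 0.46 for RefSeq accessions only. It was 0.35 without variants and the binding protein or without probes that list another named gene. With probes well above background on all 8 arrays it was also 0.35. The sign of a single member's difference turned for 33 of 123 under cyclic loess and 22 under quantile normalization, which move the median of all probes from -0.32 to 0.00 and -0.16. It turned for 32 on slide row 1 alone, 27 on slide row 2 alone and 35 without replicates 7 and 8. Of the named probes' values under alternatives, 28 moved by more than the spread within groups and 1098 did not; the cause was not tested. No paired analysis was possible because the groups share no replicate number. Signal near background limits the 5 tested members that were well above it on fewer than 8 arrays.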
